A study of Mus musculus with 6 samples.

Results

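The SR proteins and the heterogeneous nuclear ribonucleoproteins (hnRNPs) were examined in hypoxia-exposed mouse lungs. Members were chosen by gene symbol alone, as every measured gene whose mouse symbol begins with Srsf and a digit or with Hnrnp. This gave 30 of 25428 features, 10 Srsf genes and 20 Hnrnp genes. Srsf7 and Hnrnpa1 were not among them. Of all features 723 carried no symbol, so that the members need not make up the whole families. The series compared 3 Nfat5(EC)-/- mice with 3 Nfat5fl/fl mice, in which the Nfat5 gene carries loxP-flanked (floxed) sequence. All 6 mice were kept at 10% oxygen for 7 days, so that no mouse at normal oxygen was compared and a difference refers to genotype under hypoxia only. The label (EC) marks the knockout and stands for endothelial cells. The sources used here do not give the Cre driver behind it, do not show in which cells it was active, and do not give the age and the sex of the mice. RNA came from 1 whole lung lobe per mouse and was hybridised to 1 array per mouse. The mice of each genotype carry the numbers 1, 3 and 4. Values are log2 expression levels made by robust multi-array averaging (RMA), in which 1 unit is a doubling, and each gene has 1 value per array, so that isoforms of a gene cannot be told apart.

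SR proteins combine RNA recognition motifs with a domain rich in arginine and serine. They bind enhancer sequences in exons of nascent transcripts and help to recruit the spliceosome, and kinases of the Srpk and Clk families control their location and activity by phosphorylating that domain. hnRNPs coat nascent transcripts through RNA recognition motifs, KH domains or glycine-rich regions. Many of them hold exons out of the mature transcript, so that the balance between both families contributes to exon choice. Both families also act in transcript export, stability and translation. Many of their genes limit their own output through exons whose inclusion sends the transcript to nonsense-mediated decay.

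Of the 30 genes, 14 were lower in Nfat5(EC)-/- lungs, none was higher and 16 did not pass the threshold, an adjusted p of 0.05 (limma, Benjamini-Hochberg procedure over every feature). The 14 lower members make 46.7% of the 30, while 13.1% of all 25428 features were lower and 12.5% were higher. Lower calls were also more frequent in other classes of features to which the members belong. They made 15.1% of the protein-coding features and 21.6% of the features whose mean level over all 6 arrays lay at or above the median of these means, 3.01. By this mean 28 of the 30 members lay there, and Srsf3 and Hnrnpr, with means of 2.70 and 2.65 in Nfat5(EC)-/- lungs, did so through the Nfat5fl/fl arrays alone. The median log2 difference, Nfat5(EC)-/- minus Nfat5fl/fl, was -0.61 over the Srsf genes and -0.78 over the Hnrnp genes, against 0.04 over all features. All 3 Nfat5(EC)-/- arrays lay below all 3 Nfat5fl/fl arrays for 16 of the 30 members, an arrangement found for 20.0% of all features, and all 3 lay above for 3 members, which was seen for 22.0% of all features. At an unadjusted p under 0.05, 17 members were lower and 2 were higher, while 18.6% of all features were lower and 19.0% were higher.

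Promoter sequences are shown for 4 members that span the results, namely Srsf3 and Srsf1, which had the largest and the second largest decrease among the SR protein genes, Hnrnpu, which had the largest decrease among the Hnrnp genes, and Hnrnpl, whose 3 Nfat5(EC)-/- arrays all lay above the controls. Each is 300 bases, from 250 before to 50 after the gene start in RefSeq, build GRCm38.p6, written 5′ to 3′ on the strand of the gene. Capitals mark matches on either strand to GGGCGG (the GC box), CCAAT (the CCAAT box), TATAAA (the TATA box) and TGGAAA (the core letters bound by NFAT family proteins).
Srsf3 (chr17:29032410-29032709, plus strand): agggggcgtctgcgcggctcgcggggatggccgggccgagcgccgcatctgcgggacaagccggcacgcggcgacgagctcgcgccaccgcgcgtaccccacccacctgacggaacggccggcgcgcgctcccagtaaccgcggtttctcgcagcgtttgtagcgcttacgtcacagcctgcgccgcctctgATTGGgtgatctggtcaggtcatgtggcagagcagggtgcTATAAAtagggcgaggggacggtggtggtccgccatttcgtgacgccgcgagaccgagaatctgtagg
Srsf1 (chr11:88047123-88047422, plus strand): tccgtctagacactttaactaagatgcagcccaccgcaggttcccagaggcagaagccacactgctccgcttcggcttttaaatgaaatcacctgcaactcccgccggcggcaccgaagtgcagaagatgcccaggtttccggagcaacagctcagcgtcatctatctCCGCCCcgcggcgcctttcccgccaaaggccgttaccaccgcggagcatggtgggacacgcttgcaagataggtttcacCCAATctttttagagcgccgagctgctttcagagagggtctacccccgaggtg
Hnrnpu (chr1:178337766-178338065, minus strand): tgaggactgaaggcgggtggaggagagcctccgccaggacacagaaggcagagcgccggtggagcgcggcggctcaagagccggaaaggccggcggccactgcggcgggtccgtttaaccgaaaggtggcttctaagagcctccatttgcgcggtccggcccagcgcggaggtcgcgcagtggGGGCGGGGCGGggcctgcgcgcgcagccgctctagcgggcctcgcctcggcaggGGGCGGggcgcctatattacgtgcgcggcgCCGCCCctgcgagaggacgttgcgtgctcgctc
Hnrnpl (chr7:28810640-28810939, plus strand): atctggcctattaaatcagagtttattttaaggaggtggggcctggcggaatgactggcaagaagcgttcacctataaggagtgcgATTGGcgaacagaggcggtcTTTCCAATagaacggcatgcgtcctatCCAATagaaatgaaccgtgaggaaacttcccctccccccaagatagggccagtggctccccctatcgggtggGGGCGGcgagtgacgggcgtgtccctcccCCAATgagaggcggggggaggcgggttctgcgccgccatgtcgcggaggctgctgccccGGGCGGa

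The window of Srsf3 held 1 CCAAT and 1 TATAAA match and that of Srsf1 held 1 GGGCGG and 1 CCAAT match. The window of Hnrnpu held 4 GGGCGG matches, of which a pair overlaps. The window of Hnrnpl held 2 GGGCGG, 4 CCAAT and 1 TGGAAA match, and the last shares letters with a CCAAT match. RefSeq windows were matched by symbol for 28 of the 30 members and numbered 40, some of them overlapping windows of the same gene. GGGCGG occurred in 32 of the 40 windows (80.0%), against 35.7% of all 32851 windows in the table, and CCAAT in 21 (52.5%), against 37.4%. TATAAA occurred in 5 windows (12.5%), against 13.6% of all windows, and TGGAAA in 5 (12.5%), against 21.4%. The median G and C content of the member windows was 68.5%, against 52.7% of all windows, and no windows of like base composition were compared. GGGCGG was present in the windows of 11 of the 14 lower genes and 11 of the 14 other genes with a window. TGGAAA was present for 1 lower gene, Hnrnph2, and for 4 of the other genes, Hnrnpf, Hnrnpl, Hnrnpc and Hnrnpa1l2-ps2. These are matches of letters, and no binding was measured.

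Nfat5, which encodes a stress-responsive transcription factor of the Rel family, had log2 levels of 4.46, 4.48 and 3.89 in Nfat5(EC)-/- mice 1, 3 and 4, against 6.65, 6.58 and 6.30 in Nfat5fl/fl mice 1, 3 and 4. It was 4.69-fold lower in Nfat5(EC)-/- lungs (log2 difference -2.23, SE 0.23, adjusted p = 0.00151), in the direction of the labels. Of 16 markers of lung cell types, 15 lay at or above the median level in both groups and the erythroid Hbb-bs did not, and their summed log2 level was 113.2 to 119.4 in Nfat5(EC)-/- arrays and 125.1 to 129.6 in Nfat5fl/fl arrays. Among them 7 were lower (43.8%, against 13.1% of all features) and none was higher. The lower ones were the endothelial Cdh5 and Pecam1, the leukocyte marker Ptprc, the alveolar type 2 markers Sftpa1 and Lamp3 and the cell division markers Mki67 and Top2a. The log2 differences of these markers were -1.52 for Cdh5, -1.59 for Pecam1, -1.53 for Ptprc, -1.04 for Sftpa1, -1.17 for Lamp3, -1.71 for Mki67 and -1.90 for Top2a. The endothelial Kdr (-0.91, adjusted p = 0.109) and the alveolar type 2 marker Sftpc (-0.44, adjusted p = 0.254) did not pass the threshold. Of the 16 markers, 13 had a negative and 3 a positive difference. The positive ones were Alas2 (0.92, adjusted p = 0.167), Ager (0.64, adjusted p = 0.0950) and Acta2 (0.18, adjusted p = 0.615). The adjusted p of Lamp3 was 0.0445, and it was 0.0804 and 0.0874 without Nfat5(EC)-/- mouse 1 or 3, 0.141, 0.142 and 0.0726 without Nfat5fl/fl mouse 1, 3 or 4, 0.0599 with the mouse number as a block and 0.0921 with the trend with gene span removed. The median level of 106 small nucleolar RNAs was 7.43, 6.49 and 6.43 in Nfat5(EC)-/- mice 1, 3 and 4, against 4.01, 4.20 and 4.15 in Nfat5fl/fl mice 1, 3 and 4. The 7 lower markers thus differed in the direction of the lower splicing factor genes and the small nucleolar RNAs in the opposite direction. The part of either in the results was not tested. In whole lobes, fewer cells of a type and less RNA per cell cannot be told apart. Arrays of Nfat5(EC)-/- lungs correlated at r = 0.916 to 0.939 with each other, those of Nfat5fl/fl lungs at 0.968 to 0.970, and arrays of different genotype at 0.829 to 0.919, over all features.

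Among the SR protein genes, Srsf3, Srsf1, Srsf10, Srsf11 and Srsf2 were lower in Nfat5(EC)-/- lungs, by 1.59- to 3.69-fold. Srsf5, Srsf6, Srsf12, Srsf4 and Srsf9 did not pass the threshold. The largest difference was that of Srsf3, whose protein is the smallest of the family and also takes part in polyadenylation and in the export of transcripts from the nucleus. Its levels were 2.10, 3.14 and 2.87 in Nfat5(EC)-/- mice 1, 3 and 4, against 4.74, 4.50 and 4.50 in Nfat5fl/fl mice. All 3 knockout values lay more than 1 unit below the lowest control value, and mouse 1 was the lowest. Knockout mice 1 and 4 lay below the median of the arrays, 2.98, where differences may be compressed, which was not measured. The difference was -1.88 (SE 0.28, 3.69-fold lower, adjusted p = 0.00289).

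Srsf1, the founding SR protein, which acts in constitutive and alternative splicing, stood at 4.58, 4.82 and 4.29 in Nfat5(EC)-/- mice, against 6.06, 5.88 and 5.67 in Nfat5fl/fl mice. The groups were separated, with mouse 4 lowest in each, and the gene was 2.48-fold lower (log2 difference -1.31, SE 0.21, adjusted p = 0.00397). Srsf11, an SR protein that binds the U2AF splice-site factor, had 4.17, 4.10 and 3.48 in Nfat5(EC)-/- mice, against 5.19, 5.08 and 4.87 in Nfat5fl/fl mice. Here too the groups did not overlap and mouse 4 was lowest in both, and the gene was 2.20-fold lower (log2 difference -1.13, SE 0.23, adjusted p = 0.00924).

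Srsf10 encodes a protein that turns into a general repressor of splicing when dephosphorylated, as in mitosis and heat shock. Its values were 4.78, 3.50 and 3.99 in Nfat5(EC)-/- mice 1, 3 and 4, against 5.58, 5.35 and 4.83 in Nfat5fl/fl mice. The groups nearly met at knockout mouse 1 and control mouse 4. The gene was 2.23-fold lower (log2 difference -1.16, SE 0.34, adjusted p = 0.0340). The adjusted p became 0.0889 without Nfat5(EC)-/- mouse 3, 0.0747 without Nfat5(EC)-/- mouse 4, 0.130 without Nfat5fl/fl mouse 1 and 0.116 without Nfat5fl/fl mouse 3.

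Srsf2 encodes a protein of nuclear speckles that also acts in transcription elongation. The gene ranged from 6.50 to 6.91 in Nfat5(EC)-/- lungs and from 7.32 to 7.40 in Nfat5fl/fl lungs. Its decrease was the smallest of the lower SR protein genes, 1.59-fold (log2 difference -0.67, SE 0.19, adjusted p = 0.0325). Its groups did not overlap, yet the adjusted p was 0.0558 without Nfat5(EC)-/- mouse 1, 0.0721 without Nfat5(EC)-/- mouse 4, 0.0963 without Nfat5fl/fl mouse 1, 0.116 without Nfat5fl/fl mouse 3 and 0.0801 without Nfat5fl/fl mouse 4.

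The other 5 SR protein genes differed by -0.54 to 0.55. Srsf5 and Srsf6, whose proteins carry a pair of RNA recognition motifs, had differences of -0.54 (adjusted p = 0.166) and -0.31 (adjusted p = 0.321). Srsf12, which encodes an antagonist of other SR proteins, was 2.21, 1.86 and 2.52 in Nfat5(EC)-/- mice, against 1.76, 2.42 and 2.16 in Nfat5fl/fl mice. These values too lay below 2.98, and the groups overlapped (difference 0.09, adjusted p = 0.843). Srsf4, which has a long arginine and serine domain, was 4.24, 4.97 and 5.05 in Nfat5(EC)-/- mice, against 4.44, 4.59 and 4.82 in Nfat5fl/fl mice, and here the knockout values enclosed the control values (difference 0.14, adjusted p = 0.744). Srsf9, in which this domain is short, was the single SR protein gene with all 3 knockout arrays above the controls, at 5.80 ± 0.20 in Nfat5(EC)-/- lungs and 5.25 ± 0.30 in Nfat5fl/fl lungs (SD, n = 3 each). Its difference of 0.55 (SE 0.22) missed the threshold (adjusted p = 0.0992).

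**Figure D1:**
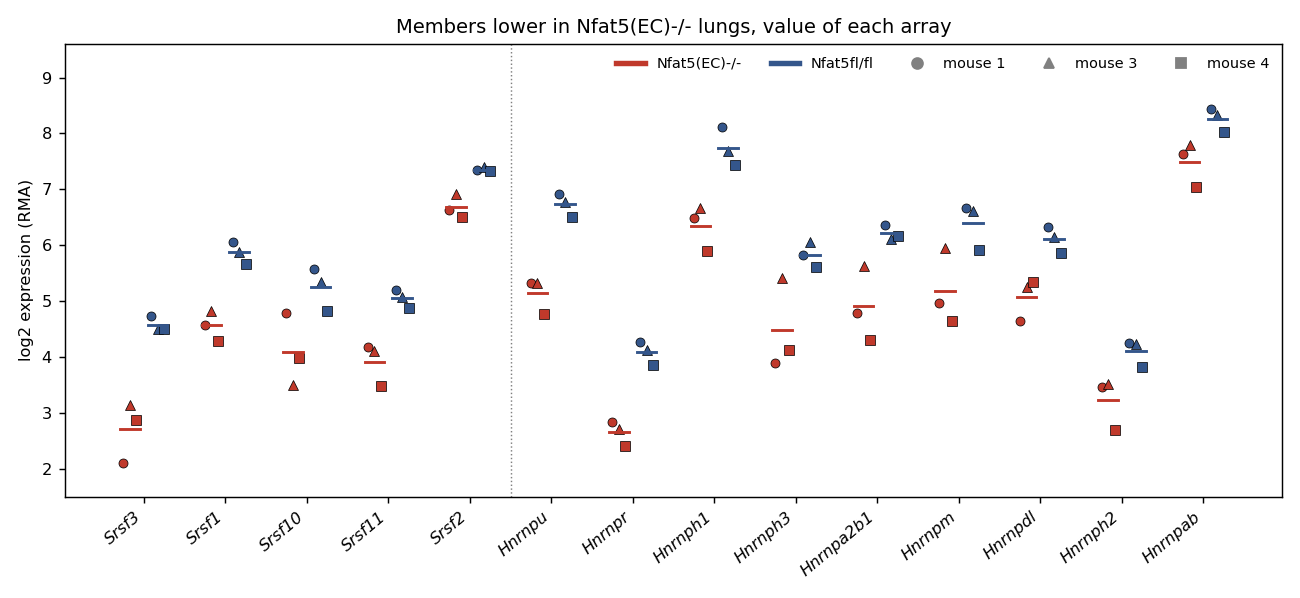
Log2 expression (RMA, y axis) of the 14 lower genes, with the Srsf genes left of the dotted line and the Hnrnp genes right of it. Each point is 1 array (circle mouse 1, triangle mouse 3, square mouse 4), red for Nfat5(EC)-/- and blue for Nfat5fl/fl, and the bars are group means. The groups are separated for 13 genes and meet only for Hnrnpm, where Nfat5(EC)-/- mouse 3 at 5.95 lies above Nfat5fl/fl mouse 4 at 5.92.

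Of the 20 Hnrnp genes, 9 were lower, Hnrnpu, Hnrnpr, Hnrnph1, Hnrnph3, Hnrnpa2b1, Hnrnpm, Hnrnpdl, Hnrnph2 and Hnrnpab, by 1.71- to 3.01-fold, and none was higher. Hnrnpu, which encodes the scaffold attachment factor that binds both RNA and chromatin, had 5.33, 5.33 and 4.77 in Nfat5(EC)-/- mice 1, 3 and 4, against 6.91, 6.78 and 6.50 in Nfat5fl/fl mice. The groups were more than 1 unit apart and the difference was -1.59 (SE 0.23, 3.01-fold lower, adjusted p = 0.00278). Its relatives Hnrnpul1 and Hnrnpul2, whose proteins are also recruited to DNA damage, differed by less. Hnrnpul1 was 6.51 to 6.88 in Nfat5(EC)-/- lungs and 7.04 to 7.15 in Nfat5fl/fl lungs, without overlap (difference -0.40, adjusted p = 0.154), and Hnrnpul2 had a difference of -0.64 (adjusted p = 0.189).

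Hnrnpr, known in motor neurons for carrying beta-actin mRNA into axons, was 2.84, 2.71 and 2.41 in Nfat5(EC)-/- mice, against 4.26, 4.12 and 3.86 in Nfat5fl/fl mice. The groups were again more than 1 unit apart, with all 3 knockout values below 2.98. The gene was 2.69-fold lower (log2 difference -1.43, SE 0.21, adjusted p = 0.00288). Hnrnpm, whose protein binds GU-rich motifs and controls exons that change in epithelial to mesenchymal transition, was 4.97, 5.95 and 4.64 in Nfat5(EC)-/- mice, against 6.66, 6.62 and 5.92 in Nfat5fl/fl mice. The groups overlapped between knockout mouse 3 and control mouse 4, and the gene was 2.32-fold lower (log2 difference -1.22, SE 0.35, adjusted p = 0.0338). For Hnrnpm the adjusted p was 0.0737 without Nfat5(EC)-/- mouse 1, 0.0876 without Nfat5(EC)-/- mouse 4, 0.125 without Nfat5fl/fl mouse 1 and 0.125 without Nfat5fl/fl mouse 3.

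The H and F proteins bind runs of G through related RNA recognition motifs, and here the 4 genes did not change alike. Hnrnph1 was 6.48, 6.66 and 5.90 in Nfat5(EC)-/- mice, against 8.12, 7.68 and 7.43 in Nfat5fl/fl mice. All knockout values lay below all control values, and the gene was 2.63-fold lower (log2 difference -1.40, SE 0.27, adjusted p = 0.00687). Hnrnph2, a close paralogue on the X chromosome, was 3.47, 3.52 and 2.70 in Nfat5(EC)-/- mice, against 4.25, 4.24 and 3.82 in Nfat5fl/fl mice. Mouse 4 was lowest in each genotype, in the knockout below 2.98, and the gene was 1.83-fold lower (log2 difference -0.87, SE 0.27, adjusted p = 0.0405). Hnrnph3, which lacks the first RNA recognition motif of its relatives, was 3.90, 5.42 and 4.13 in Nfat5(EC)-/- mice, against 5.83, 6.05 and 5.61 in Nfat5fl/fl mice. Knockout mouse 3 stood more than 1 unit above the other 2 knockout mice and still below the controls, and the gene was 2.54-fold lower (log2 difference -1.34, SE 0.37, adjusted p = 0.0276). Hnrnpf, in contrast, was 4.61, 5.10 and 5.15 in Nfat5(EC)-/- mice, against 4.89, 4.85 and 5.10 in Nfat5fl/fl mice. Its groups overlapped over most of their range and the difference was 0.0056 (adjusted p = 0.989), the smallest of all members. Whether Hnrnpf differed from the H genes in its response was not tested. The paralogues are similar in sequence, and the sources used here do not say how probes were assigned to each. Without single arrays, Hnrnph2 had an adjusted p of 0.0839 (Nfat5(EC)-/- mouse 4), 0.137 (Nfat5fl/fl mouse 1), 0.141 (Nfat5fl/fl mouse 3) and 0.0546 (Nfat5fl/fl mouse 4). Hnrnph3 had 0.0641 (Nfat5(EC)-/- mouse 1), 0.0736 (Nfat5(EC)-/- mouse 4), 0.0902 (Nfat5fl/fl mouse 1), 0.107 (Nfat5fl/fl mouse 3) and 0.0570 (Nfat5fl/fl mouse 4).

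In the A and B group, proteins with a pair of RNA recognition motifs and a glycine-rich tail that often silence exons, Hnrnpa2b1 was lower. Its product also serves in RNA transport and reads methylated adenosines. It had 4.79, 5.63 and 4.31 in Nfat5(EC)-/- mice, against 6.36, 6.11 and 6.17 in Nfat5fl/fl mice. The groups did not overlap, though knockout mouse 3 came close, and the gene was 2.47-fold lower (log2 difference -1.31, SE 0.31, adjusted p = 0.0164). The adjusted p was 0.0707 without Nfat5fl/fl mouse 1 and 0.0562 without Nfat5fl/fl mouse 3. Hnrnpa3 was 5.16 to 5.66 in Nfat5(EC)-/- lungs and 5.82 to 6.36 in Nfat5fl/fl lungs, without overlap (difference -0.66, adjusted p = 0.0641). Hnrnpa0, whose protein binds AU-rich elements, lay on the other side, at 5.55 to 6.59 in Nfat5(EC)-/- lungs and 5.18 to 5.46 in Nfat5fl/fl lungs (difference 0.60, adjusted p = 0.157). Knockout mouse 1 alone reached 6.59, and the other 2 lay close to the highest control. Hnrnpa1l2-ps2, whose symbol ends like that of a pseudogene although RefSeq lists it as protein-coding, had low values in all arrays, 2.04 to 2.27 in Nfat5(EC)-/- lungs and 1.53 to 2.19 in Nfat5fl/fl lungs (difference 0.30, adjusted p = 0.369).

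The D group binds AU-rich elements and acts in mRNA decay as well as splicing. Hnrnpdl was 4.65, 5.25 and 5.34 in Nfat5(EC)-/- mice, against 6.32, 6.15 and 5.86 in Nfat5fl/fl mice. Here mouse 1 was the lowest knockout and the highest control, and the gene was 2.04-fold lower (log2 difference -1.03, SE 0.24, adjusted p = 0.0152). Without Nfat5fl/fl mouse 1 its adjusted p was 0.0706 and without Nfat5fl/fl mouse 3 it was 0.0646. Hnrnpab, whose product also binds single-stranded DNA, was 7.04 to 7.80 in Nfat5(EC)-/- lungs and 8.03 to 8.43 in Nfat5fl/fl lungs. It was 1.71-fold lower (log2 difference -0.77, SE 0.25, adjusted p = 0.0471), close to the threshold. Its adjusted p was 0.0528 without Nfat5(EC)-/- mouse 1, 0.106 without Nfat5(EC)-/- mouse 4, 0.157 without Nfat5fl/fl mouse 1, 0.148 without Nfat5fl/fl mouse 3 and 0.0661 without Nfat5fl/fl mouse 4. Hnrnpd, the AU-rich element decay factor AUF, was 5.59 to 5.99 in Nfat5(EC)-/- lungs and 6.19 to 6.54 in Nfat5fl/fl lungs, separated but not past the threshold (difference -0.61, adjusted p = 0.0555).

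The remaining members bind other motifs and none passed the threshold. Hnrnpl, a reader of CA repeats, was 6.69 to 6.91 in Nfat5(EC)-/- lungs and 5.99 to 6.40 in Nfat5fl/fl lungs, higher in every knockout array (difference 0.58, SE 0.20, adjusted p = 0.0585). Its paralogue Hnrnpll, known in T cells for silencing exons of Ptprc, the CD45 gene, was 3.67 to 4.84 in Nfat5(EC)-/- lungs and 4.83 to 5.44 in Nfat5fl/fl lungs, with overlap (difference -0.82, adjusted p = 0.0863). Hnrnpk, which binds C-rich RNA and DNA through KH domains, was 3.86 to 5.33 in Nfat5(EC)-/- lungs and 5.06 to 6.01 in Nfat5fl/fl lungs. Its difference of -0.78 was as large as that of Hnrnpab, yet knockout mouse 4 lay more than 1 unit below the other 2 and the groups overlapped (adjusted p = 0.189). Hnrnpc, which packages nascent transcripts and binds U tracts, had a difference of -0.25 (adjusted p = 0.493).

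**Figure D2:**
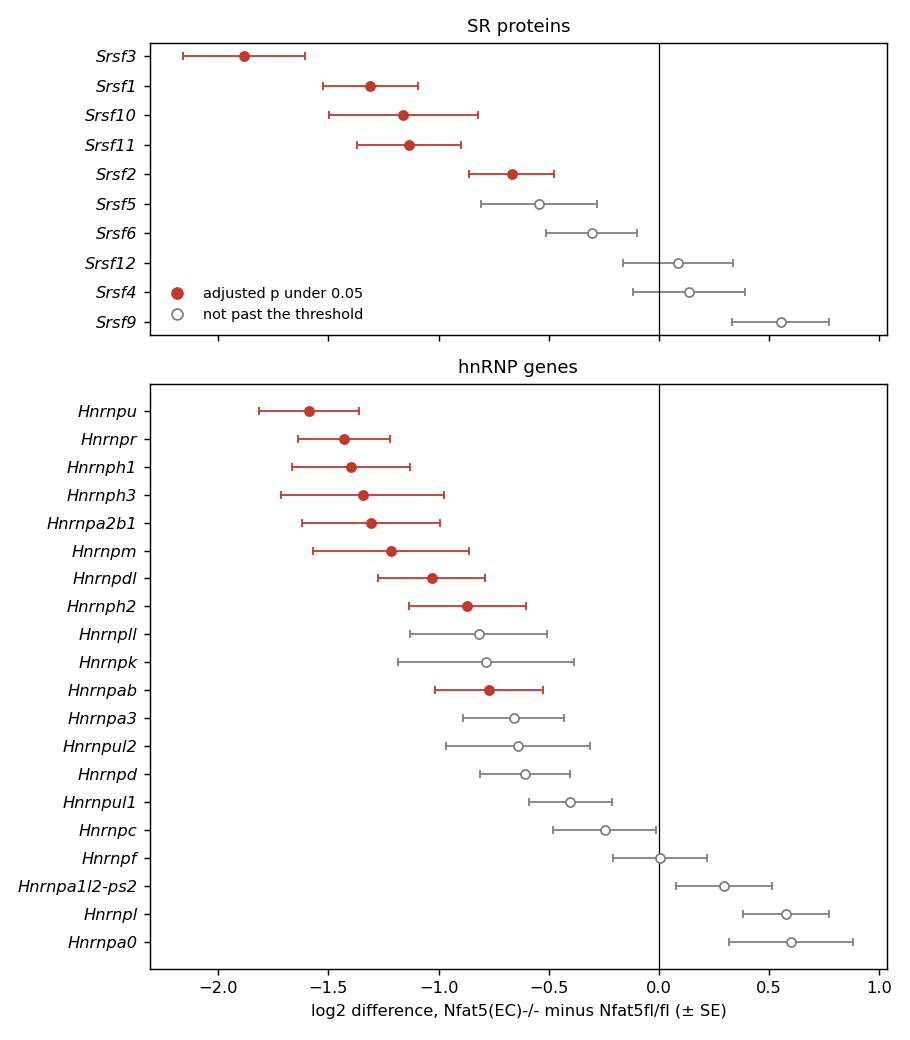
Log2 difference, Nfat5(EC)-/- minus Nfat5fl/fl (x axis, points with SE bars), for the 10 SR protein genes (top) and the 20 Hnrnp genes (bottom), ordered by size. Filled red points passed an adjusted p of 0.05 and open grey points did not. All 14 filled points lie left of 0, from -1.88 for Srsf3 to -0.67 for Srsf2, and 7 open points lie right of 0, up to 0.60 for Hnrnpa0.

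The arrays of a genotype did not contribute alike. The mean level of the 10 Srsf genes was 4.63, 4.73 and 4.62 in Nfat5(EC)-/- mice 1, 3 and 4, against 5.39, 5.31 and 5.15 in Nfat5fl/fl mice (4.66 ± 0.06 and 5.28 ± 0.12, SD, n = 3 each). That of the 20 Hnrnp genes was 5.14, 5.38 and 4.79 in Nfat5(EC)-/- mice, against 5.93, 5.83 and 5.59 in Nfat5fl/fl mice (5.10 ± 0.30 and 5.78 ± 0.17, SD, n = 3 each). Both means were lower in every knockout array than in every control array. Among the Nfat5(EC)-/- mice, mouse 4 had the lowest value for 18 of the 30 members, mouse 1 for 9 and mouse 3 for 3. Among the Nfat5fl/fl mice, mouse 4 was lowest for 20 members, mouse 3 for 6 and mouse 1 for 4, and mouse 1 was highest for 22. The SD of a member between mice had a median of 0.37 in Nfat5(EC)-/- lungs and 0.21 in Nfat5fl/fl lungs, and 25 of the 30 members were more spread in the knockout.

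**Figure D3:**
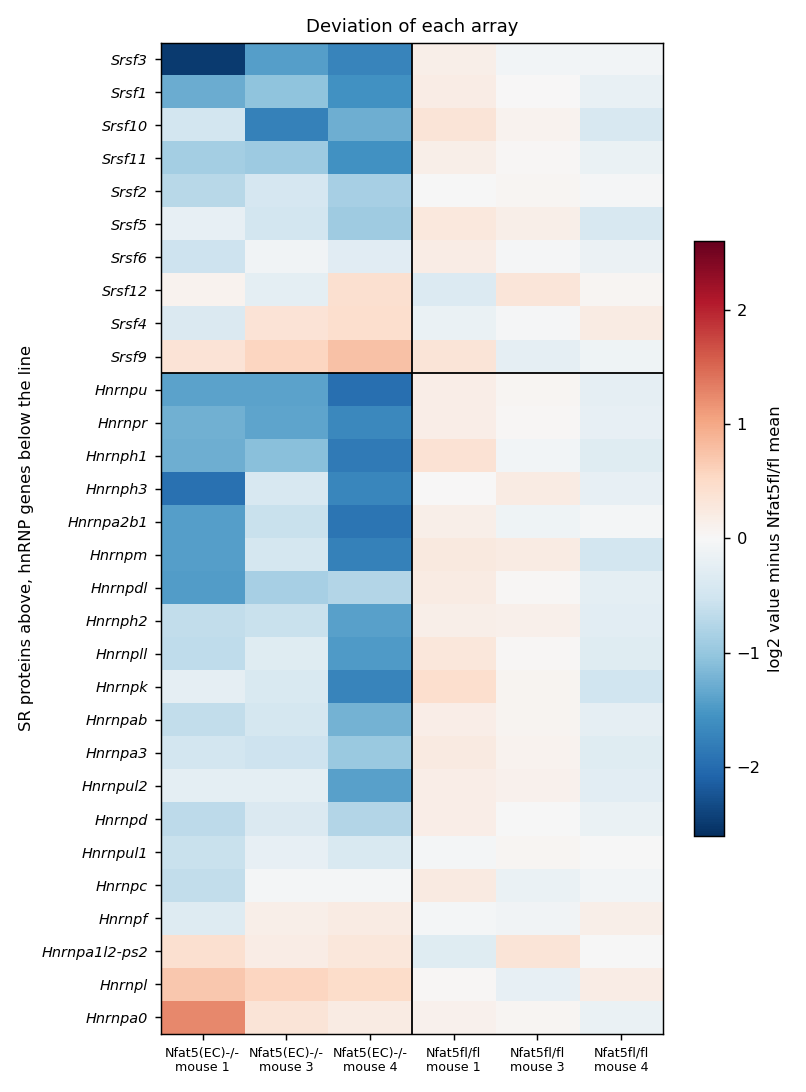
Deviation of each array (columns, Nfat5(EC)-/- left and Nfat5fl/fl right of the line) from the Nfat5fl/fl mean of each member (rows, Srsf genes above and Hnrnp genes below the line), as log2 value in colour, blue for lower and red for higher. Blue fills most of the 3 knockout columns, and mouse 4 is the lowest knockout array for 18 of the 30 members. All 3 knockout columns are red for Srsf9, Hnrnpl, Hnrnpa0 and Hnrnpa1l2-ps2.

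The lower calls thinned unevenly when 1 array was left out. Counted over both families, 10, 15 and 8 members were lower when Nfat5(EC)-/- mouse 1, 3 or 4 was left out, and 6, 6 and 10 members when Nfat5fl/fl mouse 1, 3 or 4 was left out. The count of lower features over all, 3325 with all arrays, was 3103, 3227 and 3177 without Nfat5(EC)-/- mouse 1, 3 or 4. It was 1685, 1555 and 2419 without Nfat5fl/fl mouse 1, 3 or 4. Srsf3, Srsf1, Srsf11, Hnrnpu, Hnrnpr and Hnrnph1 were called in each of the 6 fits. Of the 14 lower genes, none changed sign in these fits.

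The members were also set against the length of their genes, because over all 19686 protein-coding features long genes tended to be lower in Nfat5(EC)-/- lungs (Spearman rho of the log2 difference with gene span -0.32, across genes, which are not independent replicates). The members are genes of short to moderate span, 1165 to 39226 bp, with medians of 8986 bp for Srsf and 12968 bp for Hnrnp genes. Within them rho was 0.03 for the 10 Srsf genes and -0.12 for the 20 Hnrnp genes. In the class of protein-coding features that spans 4792 to 8317 bp, 1 of 10 of equal size, the median difference was 0.25, with 85 lower and 418 higher features, and 4 of the 7 members there were lower. In the next class, 8318 to 12851 bp, the median was 0.18, with 140 lower and 395 higher features, and 4 of the 6 members there were lower. Over the 10 classes, 11 of the 14 lower members lay in classes in which higher calls outnumbered lower ones. The other 3, Srsf11, Hnrnpr and Hnrnpm, lay in classes in which lower calls were the more frequent. Of all members, lower or not, 20 lay in the former classes and 10 in the latter. The 11 thus in part restate the short spans of the members. After the trend with span was taken out of each array, 15 members were lower, including the same 14, and Hnrnpa3 was added (adjusted p = 0.0289).

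**Figure D4:**
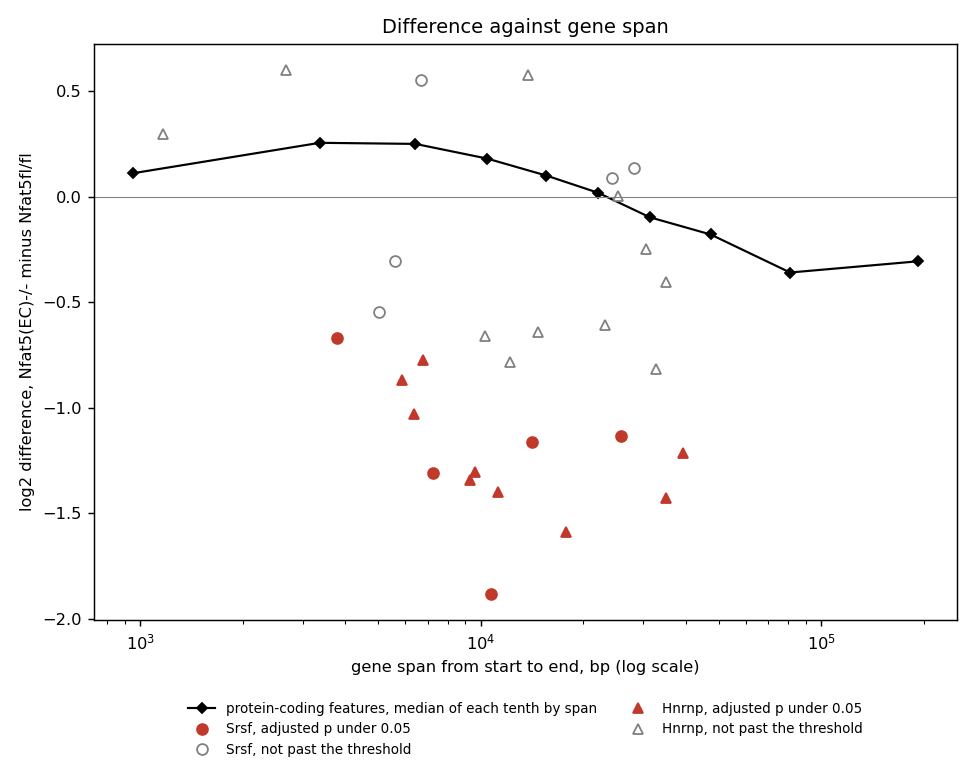
Log2 difference, Nfat5(EC)-/- minus Nfat5fl/fl (y axis), against gene span in bp (x axis, log scale). Black diamonds are medians of 10 equal classes of protein-coding features by span, circles are Srsf genes and triangles Hnrnp genes, filled red where an adjusted p of 0.05 was passed. The black line is highest at 0.26 in the second class, lowest at -0.36 in the class before the last and -0.31 in the last, while the filled points lie between -1.88 and -0.67 at spans of 3779 to 39226 bp.

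Genes that act with both families were lower in shares that differed between lists, and the lists also differed in gene span. Median spans were 31369 bp for SR-related proteins and kinases, 27915 bp for other hnRNP proteins and 52886 bp for other regulators. They were 16986 bp for the core spliceosome, 13844 bp for the minor spliceosome and 25670 bp for exon junction and decay genes. The part of span in these shares was not tested. Of 33 SR-related proteins and their kinases, 16 were lower (48.5%) and 1 was higher (3.03%), with a median difference of -0.84. Over all features 13.1% were lower and 12.5% higher. Of these 33 genes, 32 lay at or above the median level, where 21.6% of all features were lower and 21.7% higher. Lower were Prpf4b, a kinase of spliceosome assembly (-1.86, adjusted p = 0.00351), and Son and Srrm2, scaffold proteins of nuclear speckles (-1.63, adjusted p = 0.00456, and -1.51, adjusted p = 0.00572). Scaf1, an SR-related factor that binds the tail of RNA polymerase II, was higher (1.54, adjusted p = 0.00188). The lower count was 6 without Nfat5fl/fl mouse 1 and 7 without Nfat5fl/fl mouse 3, and the higher count was 2 without Nfat5(EC)-/- mouse 1.

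Of 22 hnRNP proteins known under other names, 9 were lower (40.9%) and 4 were higher (18.2%), with a median of -0.45. Of these 22 genes, 21 lay at or above the median level, where 21.6% of all features were lower and 21.7% higher. Ptbp2, with a mean of 2.98 in Nfat5(EC)-/- lungs, did so through the Nfat5fl/fl arrays alone. Ptbp2, the polypyrimidine tract binding protein of neurons (-2.00, adjusted p = 0.00526), Tardbp, which represses cryptic exons (-1.57, adjusted p = 0.00292), and Taf15, which encodes an RNA-binding protein (-1.57, adjusted p = 0.00450), were lower, while Pcbp4, a poly(C) binding protein, was higher (1.59, adjusted p = 0.00223). The lower count was 5 without Nfat5fl/fl mouse 1 and 5 without Nfat5fl/fl mouse 3, and the higher count was 2 without Nfat5fl/fl mouse 3.

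Of 42 other splicing regulators, 17 were lower (40.5%) and 3 higher (7.14%), with a median of -0.51. Of these 42 genes, 33 lay at or above the median level, where 21.6% of all features were lower and 21.7% higher. The 4 with the smallest p were all lower, Rbm25 (-1.44, adjusted p = 0.00286), the STAR protein gene Qk (-1.99, adjusted p = 0.00371), the helicase gene Ddx17 (-1.19, adjusted p = 0.00410) and Nono, of paraspeckles (-1.60, adjusted p = 0.00431). The lower count was 9 without Nfat5fl/fl mouse 1 and 9 without Nfat5fl/fl mouse 3. The higher count was 0 without either of these arrays, 1 when mouse 4 of either genotype was left out, and 7 with the trend with span removed.

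In the core spliceosome, lower and higher genes were nearer in number. Of 74 measured genes, 14 were lower (18.9%) and 9 higher (12.2%), and the median was -0.01. Of these 74 genes, 67 lay at or above the median level, where 21.6% of all features were lower and 21.7% higher. Cdc40, a second-step splicing factor (-1.59, adjusted p = 0.00265), and the helicase gene Ddx46 (-1.68, adjusted p = 0.00313) were lower, while Sf3a2 (1.65, adjusted p = 0.00241) and Sf3b5 (1.32, adjusted p = 0.00433), both of the particle that holds the branch site, were higher. Lower and higher counts were 5 and 5 without Nfat5fl/fl mouse 1, 6 and 4 without Nfat5fl/fl mouse 3 and 8 and 5 without Nfat5fl/fl mouse 4. Of 10 genes of the minor spliceosome, 1 was lower (10.0%) and 2 were higher (20.0%), and 9 lay at or above the median level. Rnpc3 was lower (-1.28, adjusted p = 0.00807) and Zmat5 (1.17, adjusted p = 0.00427) and Pdcd7 (0.79, adjusted p = 0.0258) were higher. Pdcd7 lost its call without Nfat5(EC)-/- mouse 1 (adjusted p = 0.0558), Nfat5(EC)-/- mouse 4 (0.0530), Nfat5fl/fl mouse 1 (0.0987) and Nfat5fl/fl mouse 3 (0.0987). Neither of 2 measured spliceosomal small nuclear RNA features passed the threshold.

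Of 14 genes of the exon junction complex and of nonsense-mediated decay, 4 were lower (28.6%) and 3 higher (21.4%), with a median of -0.10. Of these 14 genes, 13 lay at or above the median level, where 21.6% of features were lower and 21.7% higher. Upf2, with a mean of 2.95 in Nfat5(EC)-/- lungs, did so through the Nfat5fl/fl arrays alone. Smg1, the kinase that phosphorylates Upf1 (-2.20, adjusted p = 0.00223), and the Upf1 partner Upf2 (-1.71, adjusted p = 0.00397) were lower, while Dhx34 (1.09, adjusted p = 0.00802) and Smg9, a subunit of the Smg1 kinase complex (0.89, adjusted p = 0.0175), were higher. Lower and higher counts were 2 and 1 without Nfat5fl/fl mouse 1 and 2 and 1 without Nfat5fl/fl mouse 3, and the higher count was 5 without Nfat5(EC)-/- mouse 1. Smg9 lost its call without Nfat5fl/fl mouse 1 (adjusted p = 0.0767), Nfat5fl/fl mouse 3 (0.0511) and Nfat5fl/fl mouse 4 (0.0557). No difference between lists was tested.

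**Figure D5:**
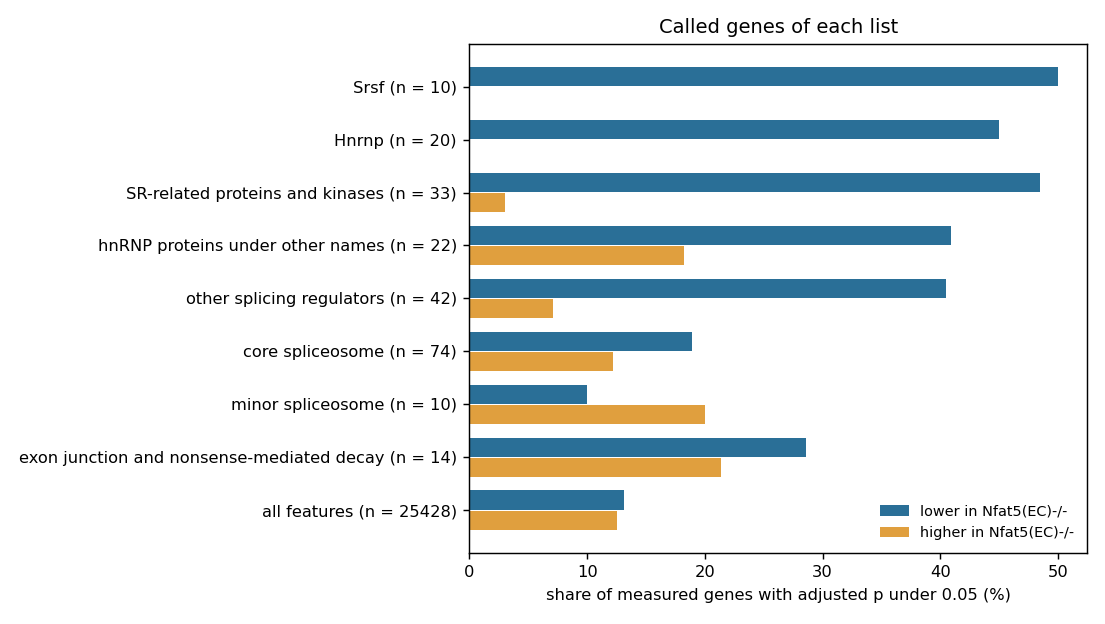
Share of measured genes with an adjusted p under 0.05 (x axis, %), lower (blue) and higher (orange) in Nfat5(EC)-/- lungs, for both families, 6 lists of other splicing genes and all features. Lower shares are 50.0% for Srsf and 45.0% for Hnrnp genes without any higher call, 48.5% for SR-related proteins and kinases, and 18.9% for the core spliceosome, against 13.1% of all features.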

How the data were processed

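Total RNA of 1 lung lobe per mouse was labelled by the authors by way of biotinylated cRNA and hybridised to Affymetrix arrays, 1 array per mouse. The authors deposited log2 values from RMA (background correction, quantile normalization and probe summary), so that arrays share 1 distribution (sorted values differed by at most 0.00183) and a change in total RNA would not be seen. The sources used here do not name the RMA version, array design or genome build, values carry no detection call, and the precision rests on 3 arrays per genotype.

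Of 25428 features, 24705 had 1 gene symbol in the platform annotation and 723 were unnamed there. Nfat5(EC)-/- and Nfat5fl/fl arrays were compared by limma 3.58.1 in R 4.3.3 (2-sided, Benjamini-Hochberg over all features, threshold 0.05). The code was also run on simulated data in which far fewer features were changed than passed the threshold here. That check therefore does not cover the setting of these data. An exact permutation test of 3 against 3 arrays cannot give a p below 0.1. Gene spans and promoters came from RefSeq GRCm38.p6 tables. All members may be named. Values of every array are given for the 12 lower members with the largest change and the 3 with the smallest change of all, and up to 4 genes with the smallest p are named per list. Members, lists and rules were chosen with earlier results of these data known. Alternatives were other normalizations and variance models, filters, a minimum change of 0.5, array weights, removal of the trend with span, a replicate block and leaving out each array.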

Additional observations from a re-analysis of the deposited data

How the results depend on the processing

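For the 14 lower members, 17 alternatives were run, of which 6 left out 1 array each; 3 genes, Srsf1, Hnrnpu and Hnrnpr, passed the threshold in all 17. Over 508 combinations of a member and an alternative, 439 kept direction and side of the threshold. A call was lost in 54 and gained in 6, and the sign changed in 9. The 508 include quantile normalization and median centring, which could hardly change values that already shared 1 distribution. All 14 lower calls stayed in both, which is therefore no test of them. The sign changes concerned genes near 0: Srsf12 was -0.0093 with array weights and -0.0896 to 0.2542 with 1 array left out, Srsf4 -0.0106 to 0.3942 with 1 array left out, and Hnrnpf -0.0186 after cyclic loess and -0.0934 to 0.1776 with 1 array left out. Lower Srsf and Hnrnp genes (5 and 9) numbered 2 and 2 with a minimum change of 0.5 and 1 and 2 without variance moderation, and 3 to 4 and 3 to 11 with 1 array left out. Over all features the 3325 lower and 3185 higher calls became 846 and 684 with a minimum change, 866 and 1118 without moderation, and 1555 to 3227 and 1462 to 3138 with 1 array left out. The median difference of the Srsf genes was -0.90 after removal of the trend with span and -0.72 to -0.46 with 1 array left out, that of the Hnrnp genes -0.95 to -0.52 with 1 array left out. Lower counts in the lists of SR-related proteins, other hnRNP proteins, other regulators and the core spliceosome (16, 9, 17 and 14) became 3, 3, 3 and 2 with a minimum change and 2, 1, 3 and 2 without moderation. Hnrnpab lost its call after cyclic loess (adjusted p = 0.0955) and Hnrnph2 with a variance trend and robust moderation (0.0510). The causes were not tested.

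Deviations of same-numbered mice from their group means correlated at 0.0647, -0.0103 and 0.00719 over all features. Those of differently numbered mice correlated at -0.110 to 0.105. With 3 mice per genotype these values cannot decide whether the numbers pair the mice. With the number as a replicate block, 5 Srsf and 12 Hnrnp genes were lower, with all 14 among them and Hnrnpll, Hnrnpk and Hnrnpa3 added (adjusted p = 0.0430, 0.0434 and 0.0457), and 3247 features were lower and 3063 higher.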
